A study of Mus musculus with 10 samples.

Results

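The 38 genes described here encode ligands, receptors and extracellular antagonists of the bone morphogenetic protein (BMP) and transforming growth factor beta (TGF-beta) pathways, together with the inhibitory Smads and the Id proteins. They were chosen by name from 22359 protein-coding genes of GENCODE M1 and fall into 17 ligands, 8 receptors, 7 antagonists and 6 Smad or Id genes. A gene was given a histone mark when a called peak came within 2500 bp of any of its protein-coding transcription start sites (TSSs). The summed length of those peaks was taken as the extent of the mark. Presence and summed length were then compared between the classes and between genotypes.

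Ligands of this family bind pairs of transmembrane serine/threonine kinases, the type I and type II receptors. The receptors phosphorylate Smad proteins, which enter the nucleus with Smad4 and bind DNA. Antagonists such as Noggin and Chordin trap BMP ligands outside the cell, whereas Smad6 and Smad7 block the pathway inside it. *Id1*, *Id2*, *Id3* and the genes of the inhibitory Smads are well known direct targets of BMP signalling. Id proteins lack a DNA-binding basic region and sequester the E proteins with which SCL and other basic helix-loop-helix (bHLH) factors pair. BMP4 is a classical inducer of mesoderm and blood in differentiating embryonic stem (ES) cells.

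The data are peak lists from spike-in ChIP-seq (ChIP-Rx) of sorted mCherry-positive mesoderm cells. They were taken at day 4 from embryoid bodies (EBs), in which clumps of mouse ES cells differentiate. In the WT group (*Scl:mCherry*) mCherry was inserted on a single *Scl* allele and SCL is functional. In the Delta group (*Scl*Δ/Δ:mCherry) the bHLH domain is deleted from both alleles, so SCL, a transcription factor required for blood, does not function. Both lines are edited ES cell lines grown from single sorted cells. The Delta line was made from the WT line, whose parent was the J1 line. The labels of the first samples give the strain as a C57Bl/6 and Sv129 cross. In later labels the number in that name rises from sample to sample, so the strain label is uncertain there. *Drosophila* S2 cells were mixed with the sorted cells of both groups as the spike-in. Antibodies against 4 marks were used. H2AK119ub, laid down by Polycomb repressive complex 1, and H3K27me3, laid down by Polycomb repressive complex 2, mark silenced genes. H3K27ac and H3K4me3 mark active genes, and H3K4me3 together with H3K27me3 at the same TSS is called bivalent.

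Each mark was profiled in a single library of each genotype, so replicate error is unknown and no test was made. Every difference is one between 2 libraries. In slightly older EBs of these lines, the paper reports PDGFRα, a surface marker of cardiac and paraxial mesoderm, on far more mCherry-positive Delta cells than WT cells. A difference between the groups here cannot be told apart from a difference in the make-up of the sorted cells, which was not tested. The 8 lists held between 2388 and 16038 peaks, and read depth cannot be read from them. H2AK119ub had 4922 peaks in WT and 2388 in Delta, and none of its peaks at the 38 genes reached a −log10 q of 3, so its absences are the least certain. A peak list gives places where a mark passed the authors' threshold, not the level of the mark, and an unlisted region may still carry the mark below that threshold. The labelled mesoderm was checked against 8 marker genes of mesoderm and haemangioblasts. All 8 had H3K4me3 at the TSS in both genotypes, whereas H3K27ac was called at 4 of them in WT and 0 in Delta. *Tal1*, the gene that encodes SCL, was among these 4, with 1833 bp of H3K27ac in WT and no peak in Delta. Its H3K4me3 extended over 6092 bp in WT and 6458 bp in Delta. Of the 8 pluripotent, endoderm and neural markers, 5 had H3K4me3 in WT and 6 in Delta, and 0 had H3K27ac in either genotype. H3K27me3 was called in both genotypes at 7 of the mesoderm and haemangioblast markers and at 5 of the others. H2AK119ub was called at 3 of the former in WT and 1 in Delta, and at 5 and 4 of the others. In Delta, H3K27ac at these markers thus did not tell mesoderm from the other cell types.

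Most of the pathway genes carried both H3K4me3 and H3K27me3. H3K4me3 was called at 34 of 38 genes in WT, where 60.7% of all protein-coding genes had it, and at 35 in Delta, where 60.3% had it. H3K27me3 was called at 33 genes in WT (34.8% of all genes) and at 34 in Delta (32.7% of all genes). Both marks were called at 31 genes (WT) and 32 genes (Delta), against 32.4% and 30.1% of all genes. H2AK119ub was found at 13 genes in WT, beside 9.21% of all genes, and at 6 in Delta, beside 5.0%. H3K27ac was found at 8 genes in WT and 10 in Delta, or 21.1% and 26.3% of the pathway genes, beside 19.9% and 22.8% of all genes. The pathway genes therefore stood above the share of all genes for 3 marks and near it for H3K27ac.

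**Figure D1:**
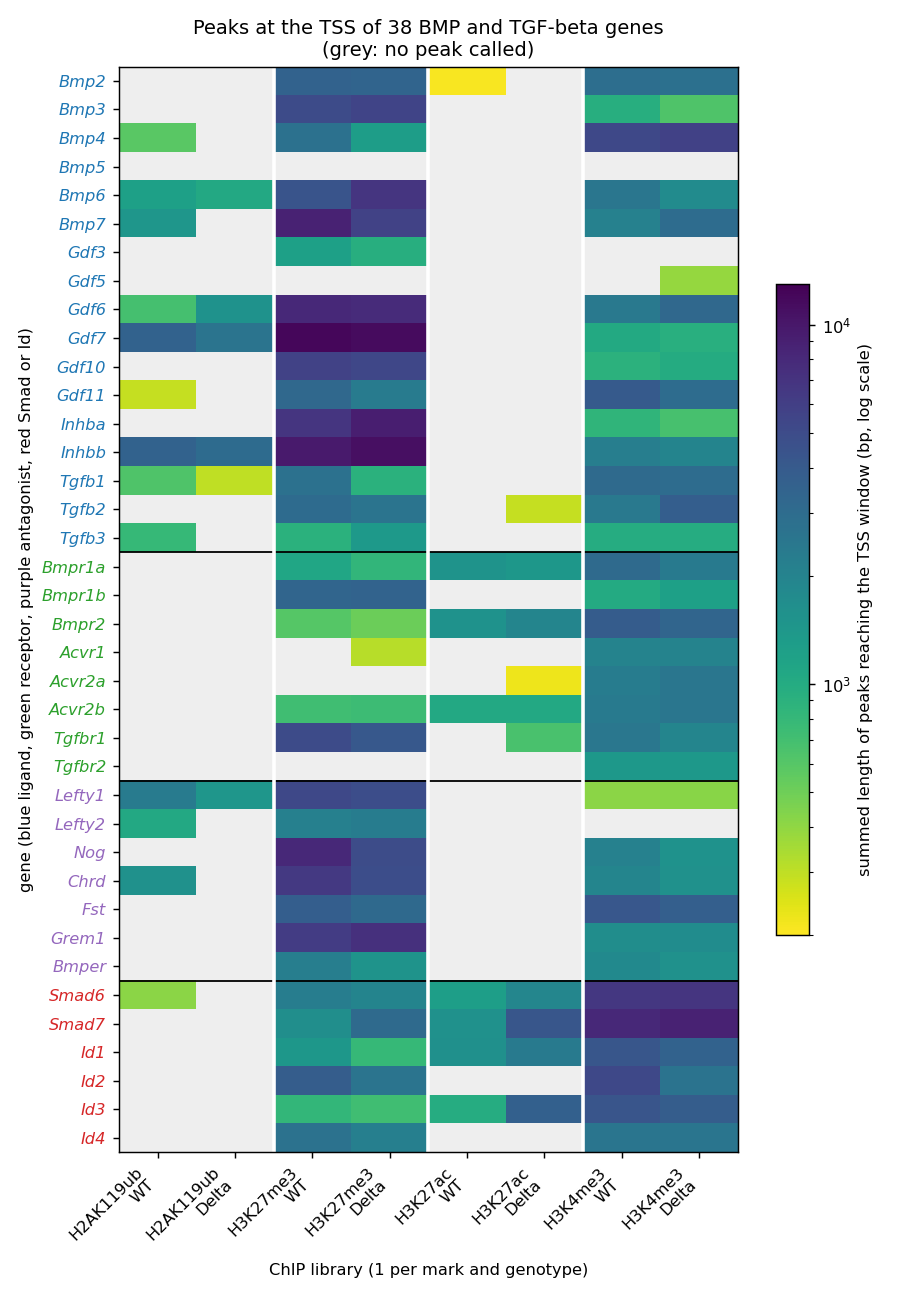
Summed length in bp (colour, log scale) of the peaks that reached a TSS window, for 38 genes (rows, grouped by class) in 8 ChIP libraries (columns), with grey where no peak was called. H3K27me3 and H3K4me3 fill most rows in both genotypes, H3K27ac is seen at 1 ligand in each genotype and at no antagonist, and H2AK119ub is seen at no receptor.

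The classes differed in which marks accompanied H3K4me3. H2AK119ub was called in WT at 9 of 17 ligands, 3 of 7 antagonists, 1 of 6 Smad or Id genes and 0 of 8 receptors. Of all genes 9.21% had it, and classes of 6 to 8 genes are too small to tell 0 or 1 gene from that share. Of the genes with H3K27me3 in WT, H2AK119ub was called at 9 of 15 ligands and 0 of 5 receptors. The share over all genes with H3K27me3 was 23.8%. The 3 antagonists were *Lefty1*, *Lefty2* and *Chrd*. H3K27ac ran the other way, with 1 ligand, 0 antagonists, 3 receptors and 4 Smad or Id genes in WT, beside 19.9% of all genes. H3K27me3 was called at all 7 antagonists and all 6 Smad or Id genes in both genotypes. It was called at 15 ligands in both, and at 5 receptors in WT and 6 in Delta, beside 34.8% and 32.7% of all genes. Where it was called, its median summed length in WT was 5249 bp at antagonists, 4404 bp at ligands, 1945 bp at Smad or Id genes and 1092 bp at receptors. The median over the 7791 genes with H3K27me3 in WT was 1725 bp. H3K4me3 was longest at the Smad or Id genes, with a median of 4786 bp in WT, while the other classes had medians from 1867 to 2313 bp and all genes with the mark 1588 bp. Delta gave the same order of classes for H3K4me3, and for H3K27me3 the ligands came first with 5312 bp and the antagonists second with 4844 bp.

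**Figure D2:**
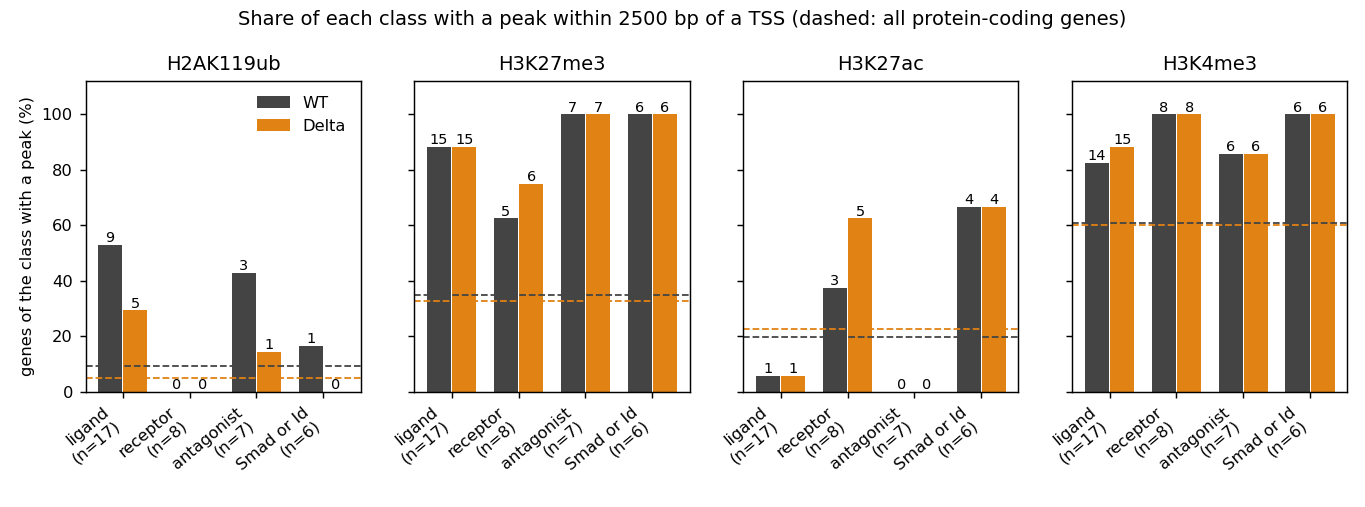
Percent of the genes of each class (bars, with the number of genes above each bar) that had a peak of each mark within 2500 bp of a TSS in WT (dark) and Delta (orange), and the percent of all 22359 protein-coding genes (dashed lines). H2AK119ub is seen at 9 ligands in WT and 5 in Delta, and H3K27ac at 4 of 6 Smad or Id genes in both.

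Ligands were mostly bivalent, and the pair with the longest H3K27me3 in WT also carried H2AK119ub. *Gdf7*, which encodes a BMP ligand first studied in the spinal cord roof plate, had the longest H3K27me3 of all 38 genes, with 12020 bp in WT against 11470 bp in Delta. Its H2AK119ub extended over 3476 bp in WT and 2590 bp in Delta, its H3K4me3 over 1031 bp and 932 bp, and it had no H3K27ac. *Inhbb*, which encodes the beta B subunit of activins and inhibins, had 9576 bp of H3K27me3 in WT and 10972 bp in Delta. Its best H3K27me3 peak was enriched 10.6-fold over local background in WT and 10.7-fold in Delta, above 99.8% and 99.4% of the peaks of the respective list. *Inhbb* also had 3502 bp and 3036 bp of H2AK119ub, 2187 bp and 1987 bp of H3K4me3, and no H3K27ac. *Inhba*, for the beta A subunit, had no H2AK119ub or H3K27ac, and its H3K27me3 measured 6774 bp in WT against 9087 bp in Delta. The summed lengths of the repressive marks of *Gdf7* and *Inhbb* thus differed by less than 1.5-fold between genotypes.

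*Bmp4* had H2AK119ub in WT alone and shorter H3K27me3 in Delta. H2AK119ub was called over 583 bp in WT, with a −log10 q of 1.58, and not in Delta, where the nearest peak lay 7032 bp from the TSS. H3K27me3 measured 2757 bp in WT and 1271 bp in Delta, a ratio of 2.17 in favour of WT, and its best fold enrichment was 4.49 in WT and 3.49 in Delta. H3K4me3 was broad in both, with 5263 bp in WT against 5776 bp in Delta. No H3K27ac was called at the TSS of *Bmp4* in either genotype. The largest ratio of H3K27me3 length between genotypes was at *Tgfb1*, which encodes the founding TGF-beta ligand. Its H3K27me3 measured 2722 bp in WT and 903 bp in Delta, a ratio of 3.01. *Tgfb1* had 636 bp of H2AK119ub in WT and 298 bp in Delta, 3091 bp and 2986 bp of H3K4me3, and no H3K27ac. Its Delta H3K27me3 peak was among the weakest of its list, above 1.73% of its peaks.

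Other ligands with H2AK119ub in WT alone were *Bmp7*, *Gdf11* and *Tgfb3*. *Bmp7*, which encodes a ligand with roles in kidney and eye, had 1462 bp of H2AK119ub in WT and none in Delta, and its H3K27me3 was 8737 bp in WT against 5731 bp in Delta. The H3K4me3 of *Bmp7* was longer in Delta, 2949 bp against 2066 bp. *Gdf11*, for a ligand that patterns the axial skeleton, had a single H2AK119ub peak of 291 bp in WT, 3171 bp and 2274 bp of H3K27me3, and 3989 bp and 2968 bp of H3K4me3. *Tgfb3* had 792 bp of H2AK119ub in WT, 902 bp and 1369 bp of H3K27me3, and 982 bp and 983 bp of H3K4me3. None of these 3 genes had H3K27ac. *Gdf6*, for a ligand of joint and eye development, was the 1 gene with H2AK119ub at least 1.5 times longer in Delta, with 687 bp in WT against 1551 bp in Delta. *Bmp6* had H2AK119ub in both lists, at 1213 bp and 1045 bp, while its H3K27me3 was 4404 bp in WT and 6858 bp in Delta.

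H3K27ac appeared at a different single ligand in each genotype. *Bmp2*, which encodes the ligand closest in sequence to BMP4, had an H3K27ac peak of 210 bp in WT, from 269 to 478 bp downstream of the TSS, and none in Delta. H3K27me3 measured 3498 bp in WT and 3390 bp in Delta at *Bmp2*, and H3K4me3 2896 bp and 2798 bp. *Tgfb2* had an H3K27ac peak of 288 bp in Delta and none in WT, with 3022 bp and 2620 bp of H3K27me3. Its H3K4me3 was longer in Delta, 3733 bp against 2416 bp, a ratio of 1.55. Both H3K27ac peaks were short and weak, with a −log10 q of 2.00 at *Bmp2* and 1.85 at *Tgfb2*, and neither passed a −log10 q of 3. *Bmp5* had no peak of any mark in either genotype. *Gdf5* had 388 bp of H3K4me3 in Delta alone, lying between 1515 and 1902 bp from its TSS, and *Gdf3* had H3K27me3 alone, 1204 bp in WT against 947 bp in Delta. The remaining ligands, *Bmp3* and *Gdf10*, were bivalent in both genotypes without H2AK119ub or H3K27ac, with 5027 to 5750 bp of H3K27me3.

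All 8 receptor genes had H3K4me3 in both genotypes and none had H2AK119ub, a mark seen at 9.21% (WT) and 5.0% (Delta) of all genes. Among 10 receptor and coreceptor genes outside this set, H2AK119ub was called at 1 in WT and 2 in Delta. The H3K27me3 of the 8 receptor genes was short or absent except at *Bmpr1b* and *Tgfbr1*. *Bmpr1a*, the type I receptor through which BMP4 signals in early mesoderm, had 1519 bp of H3K27ac in WT and 1420 bp in Delta. *Bmpr2*, the BMP type II receptor, had 1545 bp and 1955 bp. *Acvr2b*, an activin type II receptor, had 1051 bp and 1050 bp. These 3 genes thus had H3K27ac in both lists, with lengths that differed by less than 1.5-fold. The WT call at *Bmpr2* had a −log10 q of 2.9 and did not pass a limit of 3. Each also had a small H3K27me3 peak, between 510 and 1092 bp over both lists.

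A pair of receptor genes had H3K27ac in Delta alone. *Tgfbr1*, the type I receptor for TGF-beta, had a peak of 661 bp in Delta, from 31 bp upstream to 629 bp downstream of a TSS, enriched 5.28-fold with a −log10 q of 4.41. *Tgfbr1* carried H3K27me3 in both, 5011 bp in WT against 4087 bp in Delta, and 2485 bp and 1935 bp of H3K4me3. *Acvr2a*, the other activin type II receptor, had 222 bp of H3K27ac in Delta, with a −log10 q of 3.53. It had no H3K27me3 in either list, and its H3K4me3 measured 2244 bp and 2513 bp. *Acvr1*, a BMP type I receptor, had the only H3K27me3 called in a single genotype, 314 bp in Delta. *Tgfbr2*, the type II receptor for TGF-beta, carried H3K4me3 alone, 1415 bp and 1402 bp. *Bmpr1b* carried 3345 bp and 3447 bp of H3K27me3 with 1017 bp and 1203 bp of H3K4me3, and no H3K27ac.

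In terms of background, H3K27ac in Delta alone occurred at 3 of 38 pathway genes and at 6.37% of all genes, and H3K27ac in WT alone at 1 pathway gene and 3.43% of all genes. H3K27me3 in Delta alone was seen at 1 gene and in WT alone at 0, with 4.91% and 7.04% of all genes. H3K4me3 in Delta alone was seen at 1 gene and in WT alone at 0, with 0.684% and 1.06% of all genes. With peaks of a −log10 q of at least 3 alone, H3K27ac was called at 4 pathway genes in WT and 9 in Delta, beside 13.7% and 13.6% of all genes.

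The 7 antagonist genes carried H3K27me3 in both genotypes and H3K27ac in neither. *Nog*, which encodes Noggin, had 8027 bp of H3K27me3 in WT and 4901 bp in Delta, a ratio of 1.64. Its best fold enrichment was 7.20 in WT and 5.61 in Delta, and its H3K4me3 measured 2088 bp and 1557 bp. Counting bases within 2500 bp of the TSS alone, the H3K27me3 of *Nog* was 3030 bp and 2688 bp, so most of the difference lay outside that window. *Nog* had no H2AK119ub. *Chrd*, which encodes Chordin, had 3 H2AK119ub peaks in WT that summed to 1586 bp, and none in Delta. Its H3K27me3 measured 6550 bp and 4844 bp and its H3K4me3 1954 bp and 1580 bp.

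*Lefty1* and *Lefty2* encode near-identical antagonists of Nodal, and reads that map to more than 1 place were discarded upstream, so their peaks are uncertain. *Lefty1* had 2300 bp of H2AK119ub in WT and 1452 bp in Delta, with 5249 bp and 4857 bp of H3K27me3. *Lefty2* had 1054 bp of H2AK119ub in WT and none in Delta, with 2106 bp and 2267 bp of H3K27me3. H3K4me3 was absent from *Lefty2* and short at *Lefty1*, 410 bp and 422 bp, and began 1627 bp downstream of the TSS in WT and 1741 bp in Delta. *Fst*, *Grem1* and *Bmper*, which encode Follistatin, Gremlin and a secreted BMP modulator, were bivalent in both genotypes without H2AK119ub. The longest H3K27me3 of these 3 was at *Grem1*, with 6240 bp in WT against 7240 bp in Delta.

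Across the 38 genes, H2AK119ub was called in WT alone at 7 and in Delta alone at 0, beside 5.08% and 0.863% of all genes. The 7 were *Bmp4*, *Bmp7*, *Gdf11*, *Tgfb3*, *Lefty2*, *Chrd* and *Smad6*. All 13 genes with H2AK119ub in WT also had H3K27me3 there, as did 90.0% of all genes with H2AK119ub in WT. The direction did not hold when the same number of top peaks was taken from both lists. WT then had 5 genes with H2AK119ub, beside 5.44% of all genes, and Delta 6, beside 5.0%. *Bmp4*, *Bmp7*, *Tgfb3* and *Smad6* had no H2AK119ub call in either genotype under that choice, and *Gdf6*, *Tgfb1*, *Gdf7* and *Bmp6* then had it in Delta alone. That choice removes the difference in list size, 4922 against 2388 peaks, so it cannot show whether the mark fell generally in Delta. The paper reports a global reduction in Delta cells of both H2AK119ub and H3K27me3, by spike-in ChIP-seq and by western blot. The H3K27me3 calls and lengths given here do not measure its level, so similar counts in WT and Delta do not show that its level was kept. Among the 6 genes with H2AK119ub in both, this mark was at least 1.5 times longer in Delta at 1 and in WT at 2, beside 20.1% and 45.4% of the 925 genes with it in both.

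Of the 6 Smad and Id genes, 4 had H3K27ac in both genotypes and all 6 had H3K4me3. *Id1*, *Id3*, *Smad6* and *Smad7* had H3K27ac at the TSS in both lists, and its summed length was greater in Delta at all 4. *Id3* had 979 bp in WT and 3623 bp in Delta, a ratio of 3.70. *Smad7* had 1577 bp and 4242 bp, a ratio of 2.69. *Smad6* had 1256 bp and 1925 bp, a ratio of 1.53, and *Id1* had 1589 bp and 2344 bp, a ratio of 1.48. The WT calls at *Id1* and *Id3* were weak, with a best −log10 q of 1.91 and 2.83. With a −log10 q of at least 3, both genes had H3K27ac in Delta alone. The median log2 ratio of the 4 genes was 1.02, whereas it was 0.02 over the 3672 genes with H3K27ac in both lists. At the 3 receptors the median was 0.00.

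Of the 7 pathway genes with H3K27ac in both, 3 were at least 1.5 times longer in Delta and 0 in WT, beside 23.6% and 19.1% of all such genes. Once peaks up to 3000 bp apart were joined, 1 gene was still longer in Delta, *Smad7*. *Id3* and *Smad6* no longer differed by 1.5-fold, so their ratios depended on how the peaks were split. *Smad7* was also the 1 gene longer in Delta among peaks that passed a −log10 q of 3. The best fold enrichment at *Id3* was 3.82 in WT and 5.83 in Delta, and at *Id1* 3.59 and 4.73. At *Smad6* it was 3.71 and 3.89, and at *Smad7* it was 5.13 and 4.95. The longer peaks of *Id1* and *Id3* were thus also more enriched, while that of *Smad7* was not. Over the 3672 genes with H3K27ac in both lists, 2344 had a higher best fold enrichment in Delta, with a median log2 ratio of 0.09.

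At *Id3* the WT list held 1 peak of 510 bp that ended 2280 bp upstream of the TSS and 1 of 469 bp that began 530 bp downstream. In Delta the upstream peak measured 2393 bp and reached to 433 bp from the TSS, and the downstream peak measured 1230 bp. At *Id1* the peak covered the TSS in both, from 1428 bp upstream to 160 bp downstream in WT and from 1575 bp upstream to 768 bp downstream in Delta. The map of peaks around the TSS shows both.

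**Figure D3:**
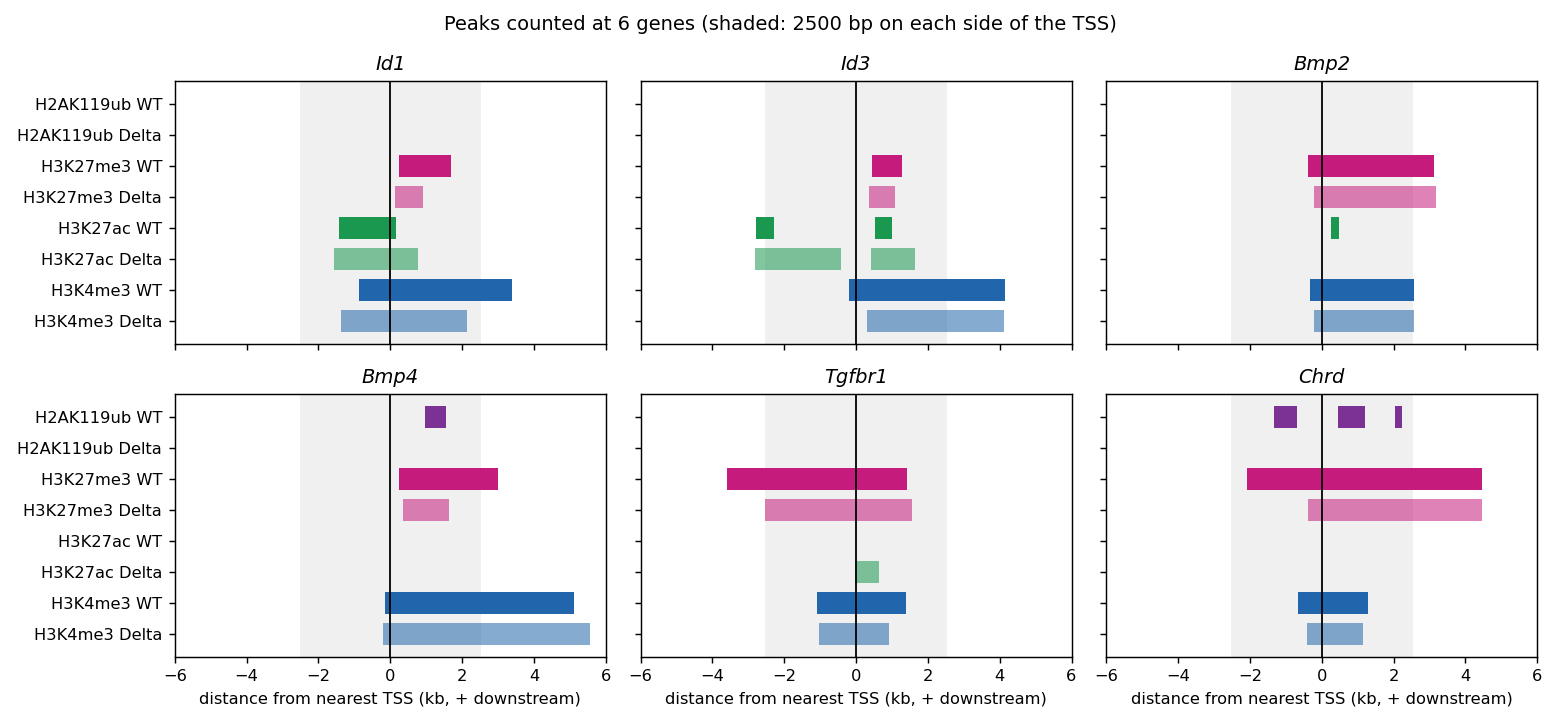
Peaks of the 4 marks in WT (full colour) and Delta (pale) at 6 genes, by distance from the nearest TSS of the gene in kb (horizontal, positive in the direction of transcription), with the window of 2500 bp on each side shaded. H3K27ac at *Id1* and *Id3* spans more in Delta, *Bmp2* has it in WT and *Tgfbr1* in Delta alone, and the H2AK119ub of *Bmp4* and *Chrd* is seen in WT alone.

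*Id2* and *Id4* had no H3K27ac at the TSS in either genotype. *Id2* showed the largest ratio of H3K4me3 length, 5218 bp in WT and 2646 bp in Delta, a ratio of 1.97, but within 2500 bp of the TSS the lengths were 2649 bp and 2646 bp. The H3K27me3 of *Id2* measured 3766 bp and 2601 bp. *Id4*, which is better known from neural tissue, had 2688 bp and 2152 bp of H3K27me3 and 2555 bp and 2583 bp of H3K4me3. H3K27me3 was shorter at *Id1*, 1437 bp in WT against 797 bp in Delta, and at *Id3*, 821 bp and 717 bp. H3K4me3 measured 4256 bp and 3522 bp at *Id1* and 4354 bp and 3821 bp at *Id3*. The 4 *Id* genes thus divided into 2 with H3K27ac and short H3K27me3 and 2 without H3K27ac and with longer H3K27me3.

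*Smad6* and *Smad7* had the broadest H3K4me3 of the 38 genes. *Smad7* had 8049 bp in WT against 8671 bp in Delta, and *Smad6* 6648 bp and 6790 bp. *Smad6* was the only gene of its class with H2AK119ub, 416 bp in WT and none in Delta. H3K27me3 measured 2226 bp and 1980 bp at *Smad6*, and 1664 bp and 3080 bp at *Smad7*. At *Smad7*, H3K27me3 and H3K27ac were therefore both longer in Delta.

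H3K27ac and H3K27me3 are alternative modifications of the same lysine, and their peaks shared bases at most of these genes. Of 8 genes with both marks at the TSS in WT, 7 had shared bases, the exception being *Id1*, and in Delta 9 of 9 did. Of all genes with both marks, 92.1% had shared bases in WT and 90.0% in Delta. At *Smad7* the shared stretch was 552 bp in WT and 2909 bp in Delta. At *Id3* it was 469 bp and 673 bp, and at *Id1* 0 and 647 bp. The lists come from populations of cells, and whether the marks occur in the same cells or on the same alleles was not tested.

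The promoters of the 4 *Id* genes are printed to set those with H3K27ac beside those without. Each is the 250 bases before the annotated TSS in NCBIM37 (mm9), read in the direction of transcription. Capitals mark GGCGCC and CAGAC (or its reverse complement GTCTG), short motifs associated with Smad binding. *Id1* lies at chr2:152561737-152561986 on the plus strand, *Id3* at chr4:135699162-135699411 on the plus strand, *Id2* at chr12:25780958-25781207 on the minus strand and *Id4* at chr13:48356546-48356795 on the plus strand.
Id1: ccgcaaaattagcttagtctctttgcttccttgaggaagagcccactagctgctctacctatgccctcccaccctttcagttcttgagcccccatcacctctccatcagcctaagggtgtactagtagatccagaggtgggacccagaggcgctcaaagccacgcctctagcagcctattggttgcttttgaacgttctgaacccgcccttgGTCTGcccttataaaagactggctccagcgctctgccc
Id3: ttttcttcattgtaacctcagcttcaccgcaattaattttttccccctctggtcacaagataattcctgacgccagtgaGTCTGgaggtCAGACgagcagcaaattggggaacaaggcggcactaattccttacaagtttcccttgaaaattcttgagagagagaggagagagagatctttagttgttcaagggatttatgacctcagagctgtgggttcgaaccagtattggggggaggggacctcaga
Id2: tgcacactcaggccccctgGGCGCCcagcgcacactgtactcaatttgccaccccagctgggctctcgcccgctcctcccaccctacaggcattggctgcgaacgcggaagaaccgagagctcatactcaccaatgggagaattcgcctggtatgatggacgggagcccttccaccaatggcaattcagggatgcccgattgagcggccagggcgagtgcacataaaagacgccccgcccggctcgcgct
Id4: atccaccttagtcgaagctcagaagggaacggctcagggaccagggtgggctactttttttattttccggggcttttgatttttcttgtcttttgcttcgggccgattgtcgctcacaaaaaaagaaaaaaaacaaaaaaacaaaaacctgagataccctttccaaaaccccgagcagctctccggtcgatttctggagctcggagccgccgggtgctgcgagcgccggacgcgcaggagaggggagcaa
CAGAC occurred 1 time at *Id1*, 2 times at *Id3* and not at *Id2* or *Id4*, and GGCGCC occurred 1 time, at *Id2*. The promoter window of *Id1* lay inside the H3K27ac peak of both lists, whereas that of *Id3* lay in the gap between its peaks in both.

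Over 22354 promoters of the same length, GGCGCC was found in 11.3% and CAGAC on either strand in 40.9%. Among the 38 pathway genes they were found in 7 (18.4%) and 14 (36.8%). GGCGCC was found at 3 of 8 receptors and 0 of 17 ligands. The E-box CANNTG, the kind of site that bHLH factors bind, was found in 14 of 38 promoters and 63.3% of all. Its form CAGATG was found in 3 and 12.7%, while GATAAG, read on both strands as the site known for GATA factors, was found in 0 and 6.12%. x A ratio of observed to expected CpG of at least 0.6 within 500 bp of the TSS was reached by 28 of 38 genes (73.7%), including all 8 receptors and 5 of 6 Smad or Id genes, and by 46.0% of all genes.

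Summed lengths of H3K27me3 and H3K4me3 were compared next. Of 33 genes with H3K27me3 in both lists, 5 were at least 1.5 times longer in WT (*Tgfb1*, *Bmp4*, *Id1*, *Nog* and *Bmp7*) and 3 in Delta (*Smad7*, *Bmp6* and *Tgfb3*). Over all genes the shares were 14.8% longer in WT and 13.5% in Delta. The median log2 ratio was −0.20 for the pathway genes, with 23 of 33 shorter in Delta, and 0.01 for all genes. Of 34 genes with H3K4me3 in both, *Id2* was longer in WT and *Tgfb2* in Delta, beside 9.87% and 2.99% of all genes. Counting only bases within 2500 bp of a TSS, neither gene differed by 1.5-fold.

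**Figure D4:**
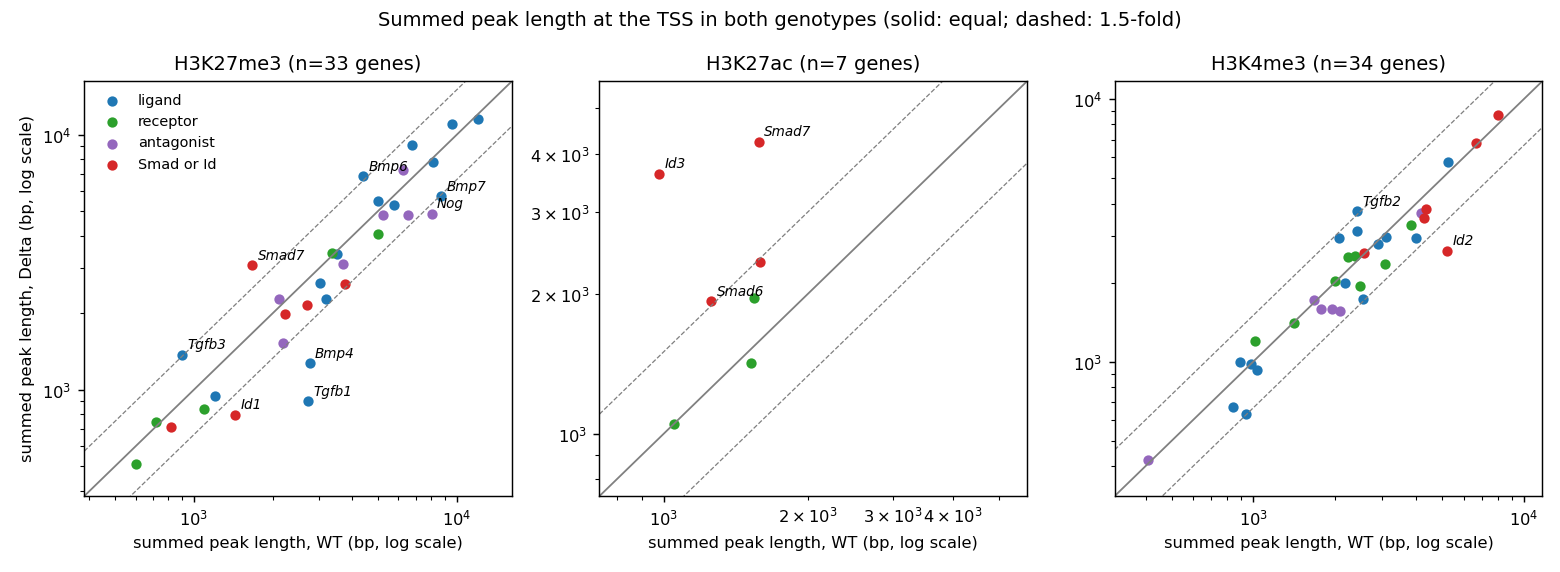
Summed peak length at the TSS in WT (horizontal) and Delta (vertical), in bp on log axes, for genes with the mark in both genotypes, coloured by class, with a solid line at equality and dashed lines at 1.5-fold. The Smad or Id genes (red) lie above the line for H3K27ac, and *Tgfb1* and *Bmp4* lie farthest below it for H3K27me3.

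H3K27ac peaks away from promoters were called mainly near the Smad and Id genes. Peaks over 2500 bp from every protein-coding TSS were counted within 50 kb of either end of each gene. There were 8 in WT, at *Smad6* (5), *Id3* (2) and *Smad7* (1). There were 19 in Delta, of which 16 were at *Smad6* (8), *Id3* (3), *Id2* (2), *Smad7* (2) and *Id1* (1). *Bmp4*, *Tgfb1* and *Bmpr1a* had 1 each in Delta, and no antagonist had any. Genes with such a peak numbered 3 of 38 in WT and 8 in Delta, while 4.82% and 5.19% of all genes had one. The whole lists held 679 of these peaks in WT and 760 in Delta. All 8 WT peaks overlapped a Delta peak, and 12 of the 19 Delta peaks had no WT counterpart. Over all H3K27ac peaks away from TSSs, 68.2% of the WT list and 71.3% of the Delta list lacked a counterpart. Restricting the lists to a −log10 q of at least 3 left 3 in WT and 7 in Delta.

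The peaks near *Id2* lay close to the limit. In Delta they began 2585 bp and 3941 bp upstream of its TSS and measured 693 bp and 994 bp, and the WT list had no peak there. With a limit of 5000 bp *Id2* was counted as having H3K27ac at the TSS in Delta alone. At *Smad6*, which encodes the Smad that inhibits BMP signalling, 4 WT peaks lay between 21963 and 37630 bp upstream and 1 inside the gene. At *Id3* a WT peak of 920 bp lay 7926 bp upstream and one of 228 bp 3579 bp upstream. The Delta peaks at the same places measured 1256 bp and 268 bp.

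**Figure D5:**
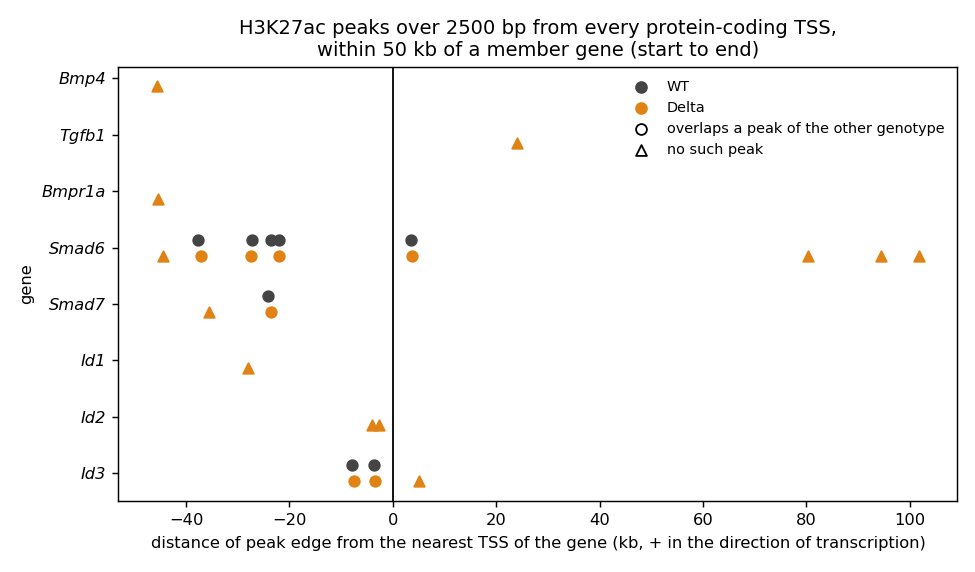
Each H3K27ac peak over 2500 bp from every protein-coding TSS and within 50 kb of a gene of the pathway, by distance from the nearest TSS of that gene in kb (horizontal, positive in the direction of transcription), in WT (dark) and Delta (orange), with circles where a peak of the other genotype overlapped it and triangles where none did. All 8 WT peaks are circles, and the 12 triangles are all from Delta.

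The shortest WT peaks near *Id3* and *Smad6* are printed because both were called in both genotypes and overlap no annotated exon. They were chosen after their values were seen. The *Id3* peak lies at chr4:135695606-135695833, upstream of the gene, and the *Smad6* peak at chr9:63866122-63866311, in an intron. Both are read on the plus strand of NCBIM37, with the same motifs in capitals.
Id3 upstream peak: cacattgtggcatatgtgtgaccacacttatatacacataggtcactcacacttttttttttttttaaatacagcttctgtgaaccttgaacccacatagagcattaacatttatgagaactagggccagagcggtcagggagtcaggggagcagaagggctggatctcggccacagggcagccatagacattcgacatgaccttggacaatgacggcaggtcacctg
Smad6 intron peak: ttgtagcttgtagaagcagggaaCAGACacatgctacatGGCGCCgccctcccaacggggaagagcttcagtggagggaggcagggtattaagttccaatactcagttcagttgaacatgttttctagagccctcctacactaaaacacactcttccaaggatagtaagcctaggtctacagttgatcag
The *Smad6* peak held CAGAC and GGCGCC 1 time each, and the *Id3* peak held neither. In central stretches of 190 bases of the 4375 WT H3K27ac peaks that were at least as long, GGCGCC was found in 21.2% and CAGAC in 29.7%. In stretches of 228 bases of 4017 peaks the shares were 24.5% and 34.2%.

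The same comparison was made for 56 other genes of the pathway, listed by name in 4 classes. H2AK119ub was called at 18 of them (WT) and 11 (Delta), H3K27me3 at 36 in both, H3K27ac at 11 and 15, and H3K4me3 at 43 and 44. The shares of all genes in WT and Delta were 9.21% and 5.0% for H2AK119ub and 34.8% and 32.7% for H3K27me3. They were 19.9% and 22.8% for H3K27ac and 60.7% and 60.3% for H3K4me3. H3K27ac was called in Delta alone at 5 of the 56, beside 6.37% of all genes, and in WT alone at 1, beside 3.43%. Those in Delta alone were *Inha*, *Eng*, *Cfc1*, *Smad3* and *Bambi*, and that in WT alone was *Dand5*. *Smad3*, an effector of TGF-beta and activin, had 1481 bp in Delta, and *Bambi*, a decoy receptor, had 734 bp. *Eng*, the TGF-beta co-receptor Endoglin of endothelium and haemangioblasts, had 403 bp. *Dand5*, an antagonist of Nodal, had 336 bp in WT. H2AK119ub was called in WT alone at 9 of the 56, beside 5.08% of all genes, and in Delta alone at 2, beside 0.863%. Those in WT alone were *Nodal*, *Gdf15*, *Bmp8a*, *Bmp8b*, *Dand5*, *Chrdl2*, *Fstl3*, *Tll1* and *Ski*, and those in Delta alone *Acvrl1* and *Ltbp3*. Of the 15 genes listed as other intracellular, 9 had H3K27ac in WT and 11 in Delta, and of the 14 other ligands 0 and 1 did. The 15 included *Bambi*, although it encodes a receptor.

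Taking the 4 marks as 1 state per gene, 25 of 38 genes (65.8%) had the same state in both genotypes, beside 74.1% of all genes. The most frequent state was H3K27me3 with H3K4me3, at 12 genes in WT and 17 in Delta, beside 14.6% and 15.6% of all genes. H2AK119ub with both was the state of 11 genes in WT and 6 in Delta, beside 7.25% and 4.26%, and H3K27ac with both that of 7 and 9, beside 10.1% and 9.97%. *Smad6* alone carried all 4 marks, in WT, as did 0.394% of all genes. Its H2AK119ub peak had a −log10 q of 1.75 and was not counted at a TSS distance of 1000 bp. At *Acvr1*, *Chrd*, *Tgfb3* and *Gdf5* another protein-coding TSS lay within 5000 bp, so a peak there may belong to the neighbour.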

How the data were processed

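ChIP-Rx libraries of 4 histone marks in WT and Delta cells and 2 inputs were described by the labels, and the 8 peak lists were used. As the study's methods and the submitters' processing notes state, reads were trimmed with Trim Galore and aligned with Bowtie to mm9 and dm3. Broad peaks were then called by the authors with MACS2 2.0.10 in each library against the input of its genotype, without pooling. The spike-in factor was applied to signal densities. A general rise or fall of a mark would therefore show in the lists only where regions crossed the threshold.

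The deposited fold enrichment is a ratio made by the authors. The deposited −log10 p and −log10 q values and the score, which lay within 1 of 10 times the −log10 q for all 70826 peaks, are also theirs. The largest q-value allowed was 0.05. Read totals were not used, so no counting interval is given.

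Peaks were assigned to genes of GENCODE M1 (NCBIM37, the same build as mm9) with Python 3.11.15, pandas 2.3.3 and numpy 2.4.6. Any overlap of at least 1 bp with the 2500 bp on either side of a protein-coding TSS was counted, and a length was called different at 1.5-fold. Groups came from sample titles. Of 111 listed genes, 110 were matched. Genes on chromosome M were left out. Promoters and peaks were read from NCBIM37. In simulated lists, 0 of 200 planted genes were assigned wrongly, and bedtools 2.31.1 called 0 genes differently in 8 lists.

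The genes with values in every library were those whose H3K27ac or H2AK119ub presence differed, the 5 with the largest difference of H3K27me3 or H3K4me3 length, the 3 with the longest H3K27me3, *Id1* to *Id4*, *Smad6*, *Smad7*, *Bmp4* and *Nog*. Other values were chosen after they were seen. The members and lists were chosen with earlier results of these data known. Alternatives were the TSS distance, a stricter −log10 q or fold enrichment, equal list sizes, a larger overlap, a single TSS per gene, clipped or joined lengths, another fold and leaving out chromosomes 1 and 8. Peaks away from TSSs were also counted within a shorter distance. In a further run *Lefty1* and *Lefty2* were counted as ligands, which moves their H2AK119ub calls in WT from the antagonists to the ligands.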

Additional observations from a re-analysis of the deposited data

How the results depend on the processing

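No paired analysis was possible because each mark had a single library of each genotype. Of 230 alternative values of the main counts, 189 stayed within 1.5 times and 41 did not. The direction of H3K27ac presence, more genes in Delta, held in every alternative run. That of H2AK119ub did not: a −log10 q of at least 3 left 0 genes in WT, 0 in Delta, 0 in WT alone and 0 longer in either, and equal numbers of top peaks gave 5 in WT, 6 in Delta, 3 in WT alone, 4 in Delta alone, 0 longer in Delta and 1 longer in WT. The count in WT alone was 3 at 1000 bp, and 1 gene was longer in WT without chromosomes 1 and 8 or at a fold of 2. For H3K27me3, WT alone gave 1 gene at 1000 bp, 4 at a −log10 q of 3 and 2 at a fold enrichment of 3, and Delta alone gave 2 at 1000 bp and 4 at a −log10 q of 3. H3K27me3 was longer in Delta at 5 genes at 5000 bp and 0 at a fold of 2, and longer in WT at 3 genes at a −log10 q of 3 and 2 at a fold of 2. For H3K27ac, a −log10 q of 3 gave 4 genes in WT, 0 in WT alone, 5 in Delta alone and 1 longer in Delta, and joined peaks gave 1. For H3K4me3, WT alone gave 1 gene at a −log10 q of 3, Delta alone gave 0 there and at 1000 bp, and no gene was longer in Delta (0) without chromosomes 1 and 8, with clipped lengths or at a fold of 2, nor in WT (0) at 1000 bp, 5000 bp, with clipped lengths or at a fold of 2. H3K27ac peaks away from TSSs numbered 3 in WT and 7 in Delta at a −log10 q of 3, and 3 and 8 within 20 kb. These counts are of a few genes, and the cause of each shift was not tested. Equal numbers of top peaks remove the difference in list size, so that run cannot show a general fall of H2AK119ub.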

Other observations

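Over the whole gene with 10 kb on each side, H3K27me3 peaks covered fewer bases in Delta at 21 of 38 genes, more at 13 and the same number at 4. They covered 13.9% of this region at *Tgfb1* in WT and 4.35% in Delta. At *Nog* they covered 37.6% and 30.3%, and at *Bmp4* 27.4% and 21.4%. In the other direction, they covered 8.10% in WT and 18.1% in Delta at *Lefty2*, 3.44% and 6.98% at *Smad7*, and 19.2% and 25.7% at *Inhba*. The region of *Gdf7* was covered to 51.7% in WT and 50.3% in Delta, and that of *Inhbb* to 40.2% and 41.0%. At the *Id* genes with H3K27ac the covered shares were low, 6.79% and 3.77% at *Id1* and 3.69% and 3.22% at *Id3*. No test was made of these values, which come from the same single libraries. The same count was not made over all genes, so whether 21 against 13 is particular to these genes is unknown.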
